A study of Mus musculus with 8 samples.

Results

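The outbred mouse lines DU6 and DUKs were set against the inbred lines DU6i and DBA in epididymal fat, a visceral depot of male mice that surrounds the epididymis. A probe set was described when both outbred lines lay above, or both below, both inbred lines, and its size was the smallest of the 4 ratios between a line of one side and a line of the other. Of 13179 probe sets on the chips, 13069 carried no AFFX prefix and 5267 of these were measured, that is, above the chip's noise floor on at least 2 of the 4 arrays. The lines of the sides did not overlap in 847 measured probe sets that were higher in the outbred lines (16.1% of those measured) and in 644 that were lower (12.2%). At a smallest ratio of 2-fold, 17 probe sets were higher (0.323%) and 23 lower (0.437%).

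For each line, RNA from 20 males aged 42 days had been pooled and hybridised to 1 array each of Affymetrix chips A and B, 8 arrays in all, so that a line had 1 value per probe set and no replicate. DU6 was bred for high body weight, DU6i was made from DU6 by inbreeding, DUKs is the control line without selection, and DBA is a standard inbred strain. These facts, and which lines are inbred, are general knowledge and the basis of the comparison; the labels mention outbred populations only as the reason for pooling. Each side held 1 selected line (DU6, DU6i) and 1 unselected line (DUKs, DBA), and since DU6i came from DU6 the lines are not independent. A pool hides the differences between animals, so the spread below is between lines. The selected lines and the unselected lines were thus balanced over the sides, as was the signal toward the 5′ end of the pyruvate carboxylase control, whose middle probe set had between 12.7% and 19.5% of the 3′ signal in DU6 and DBA and between 45.3% and 55.6% in DUKs and DU6i. A signal here is the deposited scaled intensity, linear and open to negative values, and was compared only within a chip. The defining markers of fat were high in every line. Adipoq, the gene of adiponectin, had signals of 21044 in DU6, 36670.3 in DUKs, 48251 in DU6i and 28894 in DBA, and Fabp4, the fatty acid carrier of fat cells, had 21433 in DU6, 34237 in DUKs, 48638 in DU6i and 27836 in DBA.

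Outbred lines are kept with as much genetic variation as their size allows, while an inbred strain is mated between close relatives until its animals are nearly identical. Epididymal fat contains adipocytes, stromal and immune cells and vessels, and lies against the epididymis and testis. Hepatocytes make most plasma proteins of the blood, but several of those genes are also transcribed in fat, among them the acute-phase genes Saa3 and Hp, which adipocytes and macrophages express. In a bulk sample, fewer cells of a type and less RNA per cell cannot be told apart.

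The probe sets at least 2-fold lower in both outbred lines were, where named, almost all genes of the liver. Of the 23 at 2-fold, 16 were named and stood for 14 genes, and 13 of the 14 belong to a list of 129 textbook hepatocyte genes, the exception being the secreted phospholipase gene Pla2g12a. The other 7 of the 23 had no single gene name here and ratios from 2.02-fold to 3.43-fold. The hepatocyte list was drawn up after the values had been seen, so its count describes these probe sets and is no support. RefSeq promoter windows on GRCm38.p6, from 250 bases before to 50 after a gene's start, were found for all 14. The motif GTTAAT, an arm of the palindrome bound by the liver factor HNF1, was searched on both strands with overlapping matches counted as 1. It lay in the window of 4 of the 14 genes and not in that of the other 10, in 0 of 10 genes with a window among those 2-fold higher, and in 8.24% of the 27025 genes with windows. The 14 genes had been picked by their ratios here, and 13 belong to the liver list, so these motif counts are description and no support. A match is no evidence of binding. The 150 bases before the start are shown for these 4 genes because they are the members of the group that hold the motif, which is in capitals. They lie at chr12:103863620-103863769, minus strand (Serpina1a), chr6:128526721-128526870, minus strand (Pzp), chr14:30943290-30943439, minus strand (Itih1) and chr11:78498970-78499119, plus strand (Vtn), and are written from 5′ to 3′ on the gene's strand.
Serpina1a: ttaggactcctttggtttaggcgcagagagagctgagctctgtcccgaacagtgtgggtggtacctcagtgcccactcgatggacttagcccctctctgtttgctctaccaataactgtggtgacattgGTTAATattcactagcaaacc
Pzp: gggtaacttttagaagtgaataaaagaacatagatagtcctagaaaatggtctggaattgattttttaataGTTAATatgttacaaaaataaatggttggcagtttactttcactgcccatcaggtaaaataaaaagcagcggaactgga
Itih1: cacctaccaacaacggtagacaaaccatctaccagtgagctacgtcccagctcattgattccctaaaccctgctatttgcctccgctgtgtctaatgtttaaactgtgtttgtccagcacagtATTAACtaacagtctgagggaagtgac
Vtn: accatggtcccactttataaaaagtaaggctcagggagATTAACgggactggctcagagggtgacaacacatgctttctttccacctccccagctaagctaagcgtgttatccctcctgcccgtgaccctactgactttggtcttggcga

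Among protease inhibitors and their partners, Serpina1a, which encodes an α1-antitrypsin, had signals of 1879.7 in DU6, 2368 in DUKs, 8704 in DU6i and 17064 in DBA on chip B. Both inbred lines were far above both outbred lines, and the smallest ratio was 3.68-fold. The mean log2 signal of the outbred lines minus that of the inbred lines, called the log2 difference from here on, was -2.40 (limma SE 0.40, from 2 lines per side). A brighter Serpina1a probe set, of the kind shared by a sequence family, had 26753 in DU6, 17500.4 in DUKs, 39861 in DU6i and 36881 in DBA, in the same order of sides but only 1.38-fold apart. Members of the Serpina1 and Cyp3a families are alike in sequence, so probes may read several of them. Pzp, the pregnancy zone protein, an inhibitor of many proteases, had signals of 201 in DU6, 1339 in DUKs, 3285 in DU6i and 6147 in DBA. Its smallest ratio was 2.45-fold, and DU6 was under the floor of 1023 on chip A. Ambp, whose product is cut into α1-microglobulin and the inhibitor bikunin, was measured on both chips. On chip A its signals were 854 in DU6, 1455 in DUKs, 3378 in DU6i and 4710.2 in DBA, and on chip B 973 in DU6, 2084 in DUKs, 5694 in DU6i and 8652 in DBA. The sides were apart on each chip, by 2.32-fold and by at least 2.52-fold; "at least" marks ratios against lines that were both at or under the floor, which was 2258 on chip B. Itih1, a heavy chain that is linked to bikunin, had 1824 in DU6, 3479 in DUKs, 7838 in DU6i and 7524 in DBA, a smallest ratio of 2.16-fold.

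Carriers and clotting proteins behaved alike. Apoa2, a protein of high-density lipoprotein, was the brightest of the group with 7023 in DU6, 9021 in DUKs, 23812 in DU6i and 28287 in DBA. Its smallest ratio was 2.64-fold and its log2 difference -1.71 (SE 0.28), and the other Apoa2 probe set, with 5862 in DU6, 8945 in DUKs, 17270 in DU6i and 22866 in DBA, gave 1.93-fold. Ahsg, the gene of fetuin A, had 1880 in DU6, 5042 in DUKs, 16797 in DU6i and 13196 in DBA, 2.62-fold or more between any outbred and any inbred line. Fgg, the fibrinogen γ chain, had 883 in DU6, 1427 in DUKs, 3591 in DU6i and 10102 in DBA. DBA stood clear of DU6i in Fgg, and the smallest ratio, 2.52-fold, was that of DU6i to DUKs. Vtn, vitronectin, had 965 in DU6, 1727 in DUKs, 3461 in DU6i and 6108 in DBA and a smallest ratio of 2.004-fold, the value just inside the 2-fold limit on the lower side. The value just outside was that of the other Apoa2 probe set. Below the limit came plasminogen (Plg, at least 1.72-fold), the liver fatty acid carrier Fabp1 (1.72-fold), histidine-rich glycoprotein (Hrg, 1.64-fold), hemopexin (Hpx, 1.59-fold) and prothrombin (F2, at least 1.56-fold).

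Metabolic enzymes of the liver made up the rest. Cyp3a11, a cytochrome P450 of drug and steroid oxidation, had signals of 39 in DU6, 603 in DUKs, 8557 in DU6i and 7365 in DBA on one probe set and 105 in DU6, 1165 in DUKs, 6348 in DU6i and 6588 in DBA on the other. Both outbred lines were under the floor on both, and the inbred lines were at least 3.26-fold and at least 2.81-fold higher. Cyp2f2, a P450 of lung and liver, had 359 in DU6, 1032 in DUKs, 3237 in DU6i and 3198 in DBA. Its smallest ratio was 3.10-fold, and it had the smallest unadjusted p of all probe sets in limma's test (adjusted p 0.879). DU6 was under the floor of 1022.8 and set to it, close to the 1032 of DUKs. The test thus saw almost no spread between the outbred lines. Bhmt, which passes a methyl group from betaine to homocysteine, had 278 in DU6, 1117 in DUKs, 3178 in DU6i and 3286 in DBA, a smallest ratio of 2.84-fold. For Ass1, argininosuccinate synthase of the urea cycle, the signals were 279.6 in DU6, 2764 in DUKs, 9658 in DU6i and 7027 in DBA, and for Akr1c6, a hydroxysteroid dehydrogenase, 880.1 in DU6, 931 in DUKs, 2593 in DU6i and 3552 in DBA. The sides lay 2.54-fold and at least 2.54-fold apart. Outside the liver list, Pla2g12a had 1845 in DU6, 2305 in DUKs, 6681 in DU6i and 12569.6 in DBA (2.90-fold), and Pcp4, a calmodulin-binding peptide of neurons and muscle, the 15th gene by size, had 3320.1 in DU6, 1999 in DUKs, 8622 in DU6i and 6301 in DBA (1.90-fold).

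**Figure D1:**
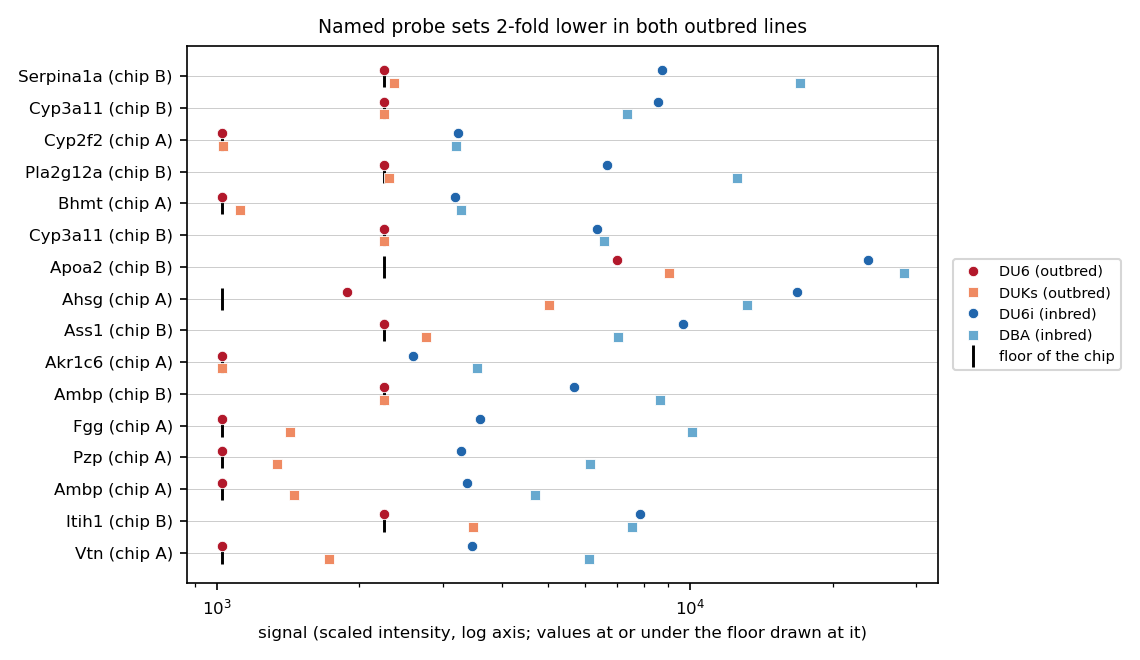
Signals (scaled intensity, log axis) of the named probe sets whose smallest ratio between an inbred and an outbred line was at least 2-fold; a point is 1 pool, circles are the lines DU6 and DU6i, squares DUKs and DBA, and the black bar is the chip's floor. The inbred points lie to the right of the outbred points in each of the 16 probe sets, and DU6 is at the floor in most.

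In 4 of the 23 probe sets both outbred lines were at or under the floor and have no order. DU6 was the lowest line in 18 of the other 19, and the ratio that set the size was DUKs to DU6i in 12 and DUKs to DBA in 6. After quantile normalisation within each chip, 22 of the 23 were still 2-fold apart. Over the whole hepatocyte list, 82 genes were on the chips and 36 were measured. Counted per gene by its brightest probe set, 24 of the 36 were lower in both outbred lines, 1 was higher and 11 overlapped, where 11.2% of the 3333 genes measured were lower and 16.9% higher. At 1.5-fold 18 were lower and 0 higher, against backgrounds of 0.78% and 1.8%. The median log2 difference of the 36 was -0.96, against 0.02 over all genes measured. Genes could pass the filter through the inbred arrays alone, as 7 of the 36 did, so these counts are no support. Of the 13 genes above the floor on all 4 arrays, 6 were lower and 0 higher, and their median was -0.44. It was -1.11 for the 20 genes read on chip A and -0.72 for the 16 on chip B. The summed signal of the list on chip A was 56229 in DU6 and 64065 in DUKs, against 118697 in DU6i and 129316 in DBA, and on chip B 110453 and 118896 against 187394 and 183299. Another 13 list genes were above the floor on 1 array only, which was DBA for 11 and DU6i for 2.

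Not all liver genes followed this order. Albumin (Alb), the most abundant plasma protein, had signals of 21333 in DU6, 41207 in DUKs, 38627 in DU6i and 34102 in DBA, so that DUKs was the highest line. Apoc1, an apolipoprotein, had 33744 in DU6, 24486 in DUKs, 26839.6 in DU6i and 24963 in DBA, with overlapping sides. Fah and Asl, enzymes of tyrosine breakdown and the urea cycle, had log2 differences of 0.12 and 0.33, and Apoc2 was 1.06-fold higher in the outbred lines. A shorter list of 30 acute-phase and secreted liver proteins, which shares genes with the first, had 18 measured. Of these, 8 were lower (44.4%) and 3 higher (16.7%), against 11.2% and 16.9% of all genes measured. The share that was higher was thus close to that of all genes. The 3 were Saa3, Apoe and Hp. Whether the transcripts came from liver cells in the pools, from fat or from related genes was not tested.

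A second group lower in the outbred lines was that of contractile genes, at smaller ratios. Of 12 measured smooth muscle and pericyte markers, 6 were lower in both outbred lines and 1 higher, against 11.2% and 16.9% of all genes measured, and the median log2 difference was -0.47. It was -0.11 without DU6i and -0.81 without DBA. Myh11, the myosin heavy chain of smooth muscle, had 3835 in DU6, 3790.5 in DUKs, 8664 in DU6i and 5951 in DBA (1.55-fold), and Tagln, which encodes the actin-binding transgelin, 10465 in DU6, 8799 in DUKs, 16802 in DU6i and 16014 in DBA (1.53-fold). Calponin (Cnn1), tropomyosin (Tpm1), desmin (Des) and the smooth muscle actin gene Actg2 lay 1.28-fold, 1.21-fold, at least 1.20-fold and 1.08-fold apart. All 6 were read on chip A. The exception, Acta2, was read on chip B and was higher in the outbred lines, with 67056 in DU6, 54373 in DUKs, 41432 in DU6i and 33513 in DBA (1.31-fold). In the citric acid cycle 6 of 14 genes were lower and 1 higher, against the same 11.2% and 16.9%, and the lower ones had ratios from 1.004-fold for the pyruvate dehydrogenase subunit Pdha1 to 1.24-fold for the succinyl-CoA ligase subunit Suclg2.

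Among genes higher in the outbred lines, Saa3, a serum amyloid A that fat and macrophages make in inflammation, had signals of 6684 in DU6, 16602 in DUKs, 2123 in DU6i and 2521 in DBA. DUKs was the highest line and both inbred lines were near the floor, and the smallest ratio was 2.65-fold. The other Saa3 probe set had 3307 in DU6, 11052 in DUKs, 988 in DU6i and 631 in DBA, with the sides in the same order and at least 1.46-fold apart. Haptoglobin (Hp), another acute-phase gene of fat, had 69031 in DU6, 81298 in DUKs, 40371 in DU6i and 35757 in DBA, in the range of signal where most of the separated chip B probe sets were higher in the outbred lines. Neutrophilic granule protein (Ngp) had 2072 in DU6, 4444 in DUKs, 692 in DU6i and 1192 in DBA and the mast cell tryptase Tpsab1 2381 in DU6, 3262 in DUKs, 1347 in DU6i and 1198 in DBA, both on chip A and 1.74-fold and 1.77-fold apart. They belong to a list of 16 mast cell and granulocyte markers, of which only 5 were measured. Of these 5, 3 were higher and 1 lower, against 16.9% and 11.2% of all genes. The lower one was Kit, the stem cell factor receptor of mast cells, with 1831 in DU6, 1874.5 in DUKs, 2295 in DU6i and 4393.5 in DBA, at least 1.02-fold apart. Of 22 macrophage and myeloid markers, 6 were higher and 0 lower, where 16.9% of all genes were higher and 11.2% lower, from Hmox1, haem oxygenase (1.05-fold), to the complement gene C1qb (1.36-fold). Adgre1, a surface receptor of macrophages, had 4322 in DU6, 3161 in DUKs, 6025 in DU6i and 2736 in DBA, with overlap, and the median log2 difference of the 22 was 0.23. It was 0.052 without DU6 and -0.058 without DBA. Of 14 interferon-induced genes, 5 were higher and 0 lower, against 16.9% and 11.2% of all genes, led by the transcription factor Irf7 with 2774 in DU6, 3565 in DUKs, 1976 in DU6i and 1525 in DBA (1.404-fold) and by Ifit3 with 2940.3 in DU6, 3324 in DUKs, 1522 in DU6i and 2140.5 in DBA (1.37-fold). None of the 14 reached 1.5-fold, and Ifi27 of the same list had 3127 in DU6, 33667 in DUKs, 44633 in DU6i and 21161 in DBA.

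Gpx5, the glutathione peroxidase secreted by the epididymis, had signals of 49126 in DU6, 52044 in DUKs, -2544 in DU6i and 20753 in DBA. The value in DU6i was below 0, and the smallest ratio, 2.37-fold, was that of DU6 to DBA. Of the other markers of the epididymis, Adam7 had 19574 in DU6, 23896 in DUKs, 5914 in DU6i and 21665 in DBA, and Ceacam10, of the male tract, 7370.3 in DU6, 4825 in DUKs, 2612 in DU6i and 4642 in DBA. DU6i was the lowest line in both, Adam7 overlapped, and Ceacam10 was 1.04-fold apart. How much epididymis each pad held was not tested. Of 17 testis and germ cell markers, all had a positive log2 difference, with a median of 0.80. Yet only the steroid enzyme gene Cyp17a1 separated the sides (at least 1.09-fold). Without DUKs the median was -0.34. DUKs was the highest line in 16 of the 17, and DBA lay above DU6 in all but Odf2 and Cyp17a1. The protamine gene Prm1, for example, had 8576 in DU6, 28545 in DUKs, 8740.1 in DU6i and 19113 in DBA.

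Of the 17 probe sets 2-fold higher, 13 were named and stood for 13 genes, and the 4 without a single name had ratios from at least 2.06-fold to 3.32-fold. Gm10486, a predicted gene bright in both outbred lines, had the largest ratio, 3.47-fold, with 19952 in DU6, 13947 in DUKs, 379.7 in DU6i and 4021 in DBA. Ets1, a transcription factor of lymphocytes and vessels, had 8568 in DU6, 5200.5 in DUKs, 2144 in DU6i and -73 in DBA on chip B (at least 2.30-fold), while its chip A probe set gave 2704 in DU6, 2013 in DUKs, 2703 in DU6i and 1812 in DBA, with overlap. Casp9, the initiator caspase of the mitochondrial pathway of apoptosis, had 3118 in DU6, 2347 in DUKs, 1037 in DU6i and 309 in DBA, and Inpp5j, an inositol phosphatase, 3019 in DU6, 2221 in DUKs, 652 in DU6i and -389 in DBA. Fhl3, a LIM-domain protein of muscle, had 3595 in DU6, 2929 in DUKs, 724 in DU6i and 1425 in DBA, and Zdhhc5, a protein palmitoyltransferase, 3661 in DU6, 3273 in DUKs, 1602 in DU6i and 1531 in DBA. These 4 were read on chip A, with smallest ratios of 2.04-fold (Zdhhc5), 2.05-fold (Fhl3), at least 2.17-fold (Inpp5j) and 2.26-fold (Casp9). That of Zdhhc5 was the value just inside the limit on this side. The value just outside was the 1.99-fold of an unnamed probe set. Homer2, a scaffold protein of synapses, and Canx, the chaperone calnexin, followed with at least 1.99-fold and 1.93-fold. The other measured Canx probe sets, 1 on each chip, gave 1.12-fold and an overlap.

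**Figure D2:**
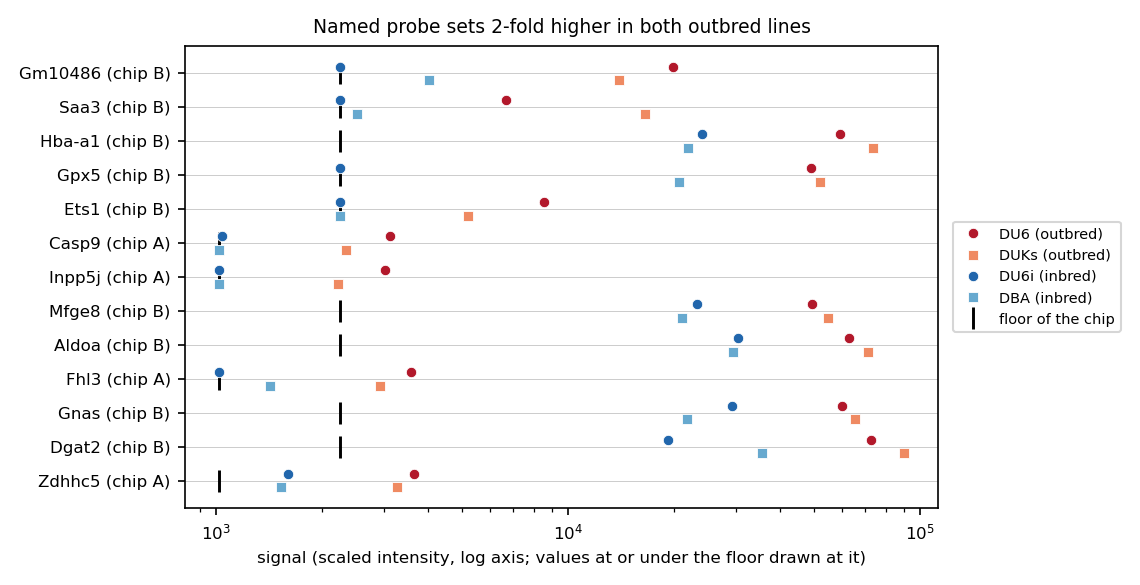
Signals (scaled intensity, log axis) of the 13 named probe sets whose smallest ratio between an outbred and an inbred line was at least 2-fold, drawn as points per pool with the same symbols and the chip's floor as a black bar. Hba-a1, Mfge8, Aldoa, Gnas and Dgat2 have all 4 lines far above the floor of chip B; of the other genes, Gpx5 has 20753 in DBA and is below the floor in DU6i.

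The remaining members at 2-fold were very bright probe sets of chip B. Dgat2, the enzyme of the last step of triglyceride synthesis, had signals of 72761 in DU6, 90083 in DUKs, 19303 in DU6i and 35559 in DBA (2.05-fold), and Hba-a1, an α-globin of red cells, 59306 in DU6, 73732 in DUKs, 24005 in DU6i and 21917 in DBA (2.47-fold). Mfge8, a secreted protein that bridges dying cells to phagocytes, had 49532 in DU6, 54889.9 in DUKs, 23309 in DU6i and 21108 in DBA, the glycolytic aldolase Aldoa 63068 in DU6, 71208 in DUKs, 30386 in DU6i and 29457 in DBA, and the G protein subunit gene Gnas 60073 in DU6, 65589.9 in DUKs, 29274 in DU6i and 21808 in DBA. These 3 were 2.13-fold, 2.08-fold and 2.05-fold apart, and a further Aldoa probe set of chip B was 1.84-fold. Aldoa, Mfge8 and Gnas also had probe sets on chip A, where the sides overlapped. Aldoa there had 10545 in DU6, 19622 in DUKs, 26663 in DU6i and 15407 in DBA, Mfge8 12859 in DU6, 22744 in DUKs, 19626 in DU6i and 18599 in DBA, and the brighter Gnas probe set 12939 in DU6, 27558 in DUKs, 43857 in DU6i and 19344 in DBA, so that DU6 was the lowest line in each.

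The same was seen in other genes. On chip B, 35 named genes were at least 1.5-fold higher in the outbred lines, and 11 of them had a measured probe set on chip A. These 11 had 13 chip A probe sets, and the sides overlapped in 12 of them. The exception was 1 of the Col1a1 probe sets, where the outbred lines were 1.075-fold higher, and the log2 difference was above 0 for that one and for Ets1. Apoe, the lipoprotein gene of macrophages and fat, was 1.84-fold higher on chip B with 47684 in DU6, 64659.9 in DUKs, 25970.4 in DU6i and 19563 in DBA, and had 11321 in DU6, 23450 in DUKs, 34167 in DU6i and 17847 in DBA on chip A. Of the genes lower at 1.5-fold, the 1 gene with probe sets on both chips, Ambp, was lower on both. Among 17 probe sets placed on both chips and above the floor on all 8 arrays, 14 of them controls, 6 separated the sides on chip B with the outbred lines higher and 0 did so on chip A. The repeat-element probe set MURINE_B2_at had 63095 in DU6, 89027 in DUKs, 34768 in DU6i and 30604 in DBA on chip B. On chip A it had 16707, 34695, 47564 and 24028 in the same order. The labels describe the pool of a line alike for both chips, and do not say whether the same labelled RNA was put on both.

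**Figure D3:**
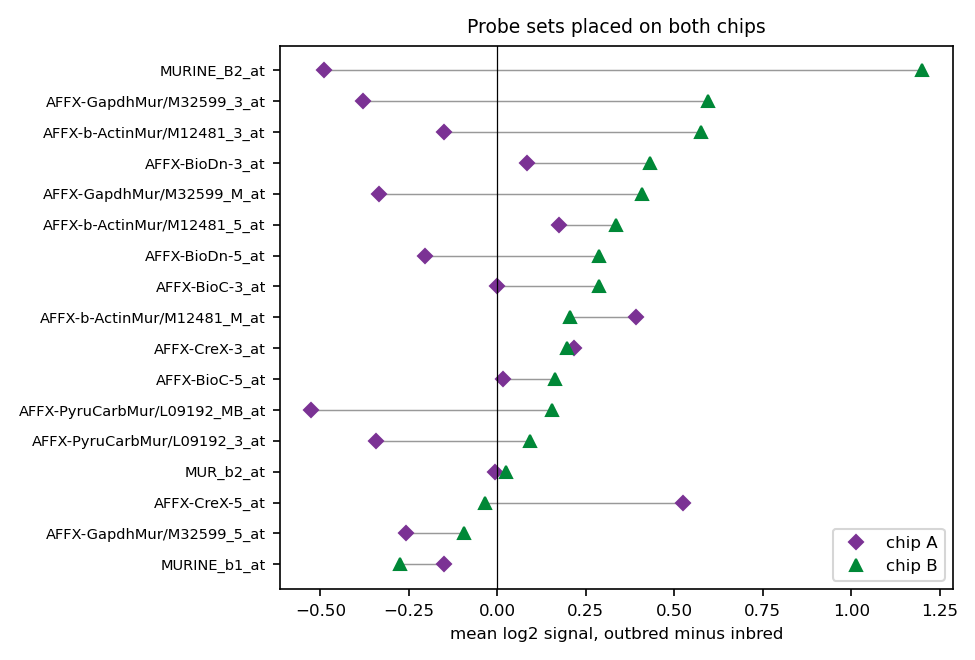
Log2 difference (mean log2 signal of the outbred minus the inbred lines) of 17 probe sets that both chips carry, diamonds for chip A and triangles for chip B, joined by a line; AFFX marks controls. MURINE_B2_at is at -0.49 on chip A and 1.20 on chip B, and the Gapdh and actin 3′ controls also have opposite signs.

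The range of the signals followed the sides on chip B. Its 99th percentile was 49489 in DU6 and 52203 in DUKs, against 34692 in DU6i and 33621 in DBA. On chip A it was 18810, 27552, 34793 and 23450 in the same order and did not. Of the 284 chip B probe sets with a mean signal over 20000, 147 were higher in both outbred lines and 16 lower, and their median log2 difference was 0.33. The 135 such probe sets of chip A had 0 higher, 7 lower and a median of -0.37. Of the 70 chip B probe sets at least 1.5-fold higher, 50 were this bright, and 7 of those 50 kept 1.5-fold after quantile normalisation. Of the 17 probe sets 2-fold higher, 11 kept 2-fold under it, and of the 23 lower, 22. The part of this range in the single values was not tested.

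**Figure D4:**
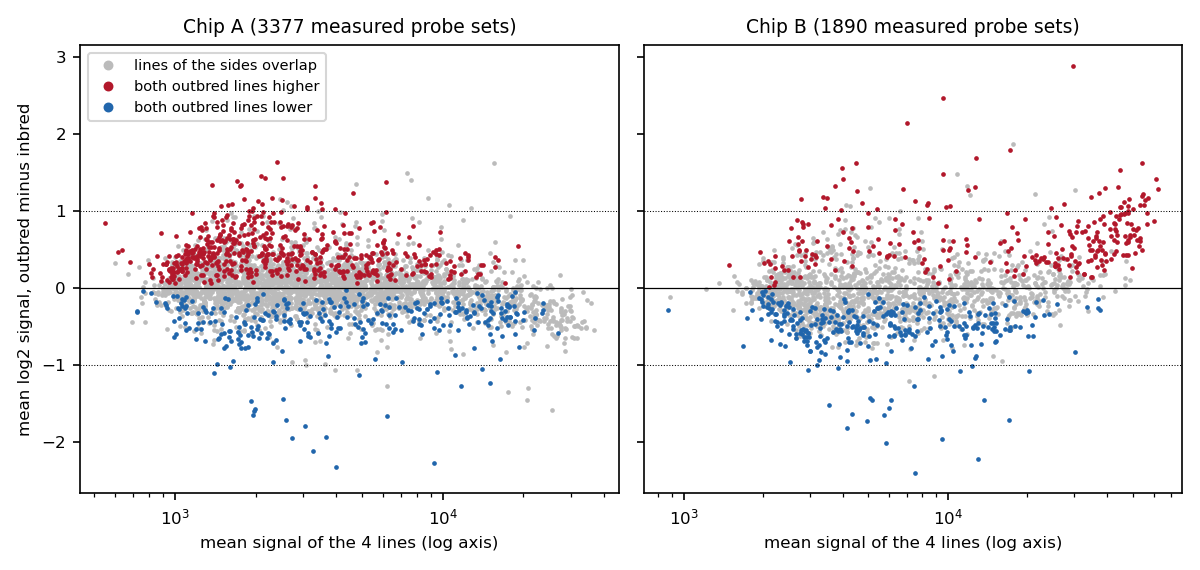
Log2 difference (mean log2 signal, outbred minus inbred) of each measured probe set against its mean signal over the 4 lines (log axis), chip A left and chip B right; colours mark probe sets whose lines do not overlap and dotted lines a difference of 1. Bright chip B probe sets lie mostly above 0 and those of chip A below it. Single genes are not marked.

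Genes of fat metabolism have to be read with that in view. Of 19 mature adipocyte markers, 3 were higher in both outbred lines (15.8%, close to the 16.9% of all genes) and 0 lower. The 3 were Dgat2, Gpd1, glycerol-3-phosphate dehydrogenase (1.78-fold), and the lipid droplet gene Cidec (1.56-fold), all on chip B. The median log2 difference of the 12 markers on chip A was -0.44 and that of the 7 on chip B was 0.48. Fasn, the fatty acid synthase, had 61926 in DU6, 63666 in DUKs, 40390.3 in DU6i and 37212 in DBA on chip B (1.53-fold). On chip A, Lpl, the lipoprotein lipase, had 7000.5 in DU6, 19095 in DUKs, 27218 in DU6i and 15474 in DBA, Lipe, the hormone-sensitive lipase, 14763 in DU6, 30054 in DUKs, 46226 in DU6i and 23529.9 in DBA, Scd1, the stearoyl-CoA desaturase, 18535 in DU6, 32582 in DUKs, 48148 in DU6i and 24798 in DBA, and Retn, the gene of resistin, 13502 in DU6, 28046 in DUKs, 42936 in DU6i and 21591 in DBA. In each the order from lowest to highest was DU6, DBA, DUKs and DU6i. The 99th percentile of the chip A signals had the same order of lines (18810, 23450, 27552 and 34793). Its part in these values was not tested. The sides overlapped in each of these chip A genes. The factors of fat cell formation overlapped too. Pparg had 3935 in DU6, 4914 in DUKs, 6564 in DU6i and 3489 in DBA, and Cebpa 5948 in DU6, 9751 in DUKs, 7988 in DU6i and 3735 in DBA. Igf1, a growth factor, had a log2 difference of -0.15, with overlap.

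Lep, the gene of the satiety hormone leptin, had signals of 12446 in DU6, 8696 in DUKs, 27777 in DU6i and 3837 in DBA. It was lower in DU6 than in DU6i and higher in DUKs than in DBA, and its log2 difference was 0.01. Ghr, the growth hormone receptor, had 1534 in DU6, 3709.7 in DUKs, 7106 in DU6i and 926 in DBA, again opposite in the pairs. Of 36 matrix genes measured, 9 were higher and 3 lower, against 16.9% and 11.2% of all genes, and the higher ones included 8 bright genes of chip B such as Col6a2 (1.71-fold), Col1a1 (1.54-fold) and Sparc (1.44-fold). The Col1a1 probe sets of chip A had 15709 in DU6, 24637 in DUKs, 37695 in DU6i and 20891 in DBA on one and 20767 in DU6, 24344 in DUKs, 12199.6 in DU6i and 19312 in DBA on the other. The sides overlapped on the first, and on the second the outbred lines were higher, as on chip B. The galectin gene Lgals1 and the ribosomal gene Rplp0 each had a pair of chip B probe sets at 1.5-fold or more, from 1.52-fold (Rplp0) to 1.75-fold (Lgals1), and the chip A probe set of Rplp0 overlapped.

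**Figure D5:**
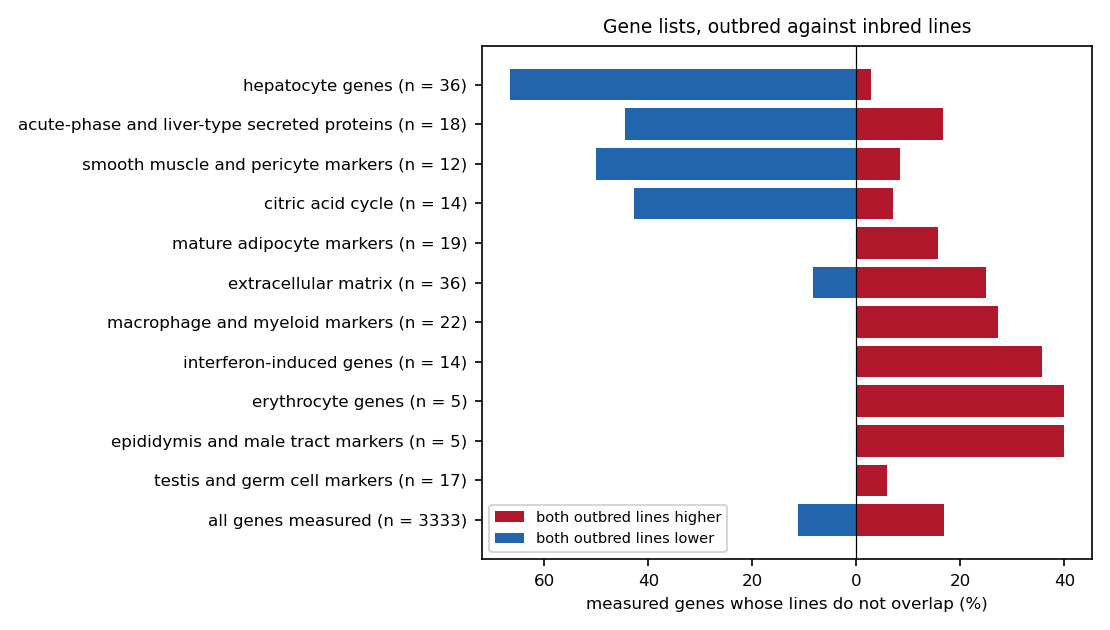
Share of measured genes of a list (number in brackets, brightest probe set of a gene) whose lines do not overlap, to the right where both outbred lines were higher and to the left where both were lower, in percent. Of the 36 hepatocyte genes 24 were lower, against 11.2% of all genes measured; that list was drawn up after the values were seen.

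No probe set passed limma's test of the 2 outbred against the 2 inbred lines with Benjamini-Hochberg adjustment (0 of 5267, or 0%, smallest adjusted p 0.879). At an unadjusted p under 0.05 there were 207 of the 5267, 139 higher and 68 lower in the outbred lines. That is a smaller share than the 0.05 that such a limit admits where no probe set differs. Of the 40 probe sets 2-fold apart, 39 were among the 207. The 40 were picked by the size of the ratios that limma tests, so this overlap is no support. With 2 lines on each side, the smallest two-sided p of an exact permutation test is 0.333. As a measure of technical error, 348 genes with a pair of probe sets above the floor on all 4 arrays were compared, and the SD of a single log2 difference was 0.31, or 0.25 within a chip and 0.41 between the chips. The median absolute log2 ratio was 0.37 between the outbred lines, 0.37 between the inbred lines and 0.23 for the log2 difference between the sides. That SD is no test of the 40 probe sets at 2-fold, since they were picked by the size of the same ratios and only 15 of them, 8 higher and 7 lower, were above the floor on all 4 arrays. For Gnas the log2 difference was 1.31 on chip B and -0.63 in the brighter chip A probe set, for Aldoa 1.16 and -0.49, and for Mfge8 1.23 and -0.16, so that the chips differed by more than the chip B difference itself. None of the 40 was shown to exceed the spread between lines by an adjusted test.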

How the data were processed

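Labelled cRNA from 8 hybridisations, 1 per line and chip, had been read on Affymetrix arrays. Per the labels, the authors obtained each intensity from Affymetrix software (Data Mining Tool 1.2, Microarray Suite 4.0.1) and brought arrays to a common scale over all probe sets. The deposited intensities are linear, 12.8% to 30.5% of them per array lay below 0, and their mean between the 2nd and 98th percentiles was 2500 on every array. Detection calls were not used here.

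Probe sets took a gene symbol from the supplied platform annotation where it gave exactly 1 (5560 on chip A, 2001 on chip B, 6137 genes). The 110 control probe sets were left out of the counts. The floor was the 95th percentile of the sizes of a chip's negative intensities, 1022.8 on chip A and 2258.25 on chip B, and lower values were set to it before log2. Lists used a gene's brightest measured probe set. limma 3.58.1 (lmFit and eBayes, R 4.3.3) was fitted per chip with 2 residual degrees of freedom and tested on simulated data, with Benjamini-Hochberg adjustment over both chips at 0.05. Its SE comes from lines that were each 1 pool.

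The named genes were the 15 higher and 15 lower by the smallest ratio, members of 43 fixed lists at 2-fold, genes with a pair of probe sets at 1.5-fold, and 14 fixed genes, 46 in all; others named belong to a list described and were picked after their values were seen. The comparison, its members and the lists were chosen with earlier results of these data known, and the hepatocyte list after the values here were seen. Promoter sequences are RefSeq's. The alternatives covered the floor, scaling, filters, chips, blocks in the fit, the probe set of a gene, and each line left out.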

Additional observations from a re-analysis of the deposited data

Results flagged for a closer look

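In Lep and Ghr the 2 pairs of lines moved in opposite directions by 2-fold or more. The log2 ratio of DU6 to DU6i, the selected lines, was -1.16 for Lep and -2.21 for Ghr, and that of DUKs to DBA, the unselected lines, was 1.18 and 1.86. The Ghr value of DBA was under the floor, so that its ratio is a lower bound. With 1 pool per line the difference between the pairs was not tested. A contrast between the pairs sets DU6 and DBA against DUKs and DU6i. The pyruvate carboxylase control splits the lines in the same way. Its middle signal was 12.7% to 19.5% of the 3′ signal in DU6 and DBA and 45.3% to 55.6% in DUKs and DU6i. The design cannot tell opposite pairs apart from this split. Over all 3333 genes measured, 44 were opposite by this measure, 15 of them lower in DU6 than in DU6i, while 19 were 2-fold higher in both outbred lines of the pairs and 17 lower.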

How the results depend on the processing

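The counts at 2-fold, 17 higher and 23 lower, depended on the floor and the limit. They were 35 and 37 with the floor halved, 9 and 5 with it doubled, 8 and 9 with log2(signal + floor), 8 and 7 with all 4 arrays above the floor, and 6 and 14 without probe sets brighter than 10000. Chip A alone had 5 and 11, chip B alone 12 lower, and the limits of 1.5-fold, 3-fold and 2-fold between side means gave 103 and 54, 2 and 4, and 76 and 41. Leaving out a line, which can only raise a smallest ratio, gave 40 to 142 higher and 54 to 70 lower. Rescaling, quantile normalisation (12 and 25), no filter and named probe sets alone stayed within 1.5 times of both counts. limma called 0 probe sets under all 18 alternatives, with smallest adjusted p between 0.0793 (eBayes with trend and robust) and 0.9999. Without the filter it was 0.0798, where most signals were at the floor and the variances are unreliable, and the next smallest was 0.202, without DBA. Of the 27 named genes at 2-fold, 21 kept it under quantile normalisation, 9 with the floor doubled and 10 with log2(signal + floor), and none turned direction. The hepatocyte median of -0.96 was -0.03 without the filter, where unmeasured genes enter at the floor, -0.44 with all 4 arrays above the floor and between -0.88 and -0.96 with a line left out. The medians of many lists changed sign: on chip B alone 13 of 41 did, and with a line left out 7 (DU6), 14 (DUKs), 6 (DU6i) and 11 (DBA) of 44. On chip B alone the new values included 0.698 for adipokines, 0.696 for fatty acid and triglyceride synthesis, 0.479 for mature adipocyte markers, 0.597 for ribosomal proteins, 0.178 for lipolysis, 0.098 for fatty acid oxidation, 0.081 for smooth muscle markers (2 genes), 0.069 for respiratory chain genes and 0.307 for class I antigen presentation. With a line left out the ranges that crossed 0 included -0.359 to 0.093 for insulin signalling, -0.030 to 0.904 for immunoglobulin genes and -0.379 to 0.039 for class I genes. The median was -0.341 for testis and germ cell markers and -0.155 for glucocorticoid metabolism without DUKs. Without DU6i it was 0.360 for adipokines and -0.857 for mesothelial and epithelial markers, and without DBA -0.058 for macrophage markers. The cause of these changes was not tested.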

Other observations

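Gene lists outside the groups above separated the sides by small ratios, where 11.2% of all genes measured were lower in both outbred lines and 16.9% higher. Of 28 proteasome and ubiquitin genes measured, 6 were lower in both outbred lines and 2 higher, and of 27 respiratory chain and ATP synthase genes 9 were lower and 4 higher. All 9 lower respiratory chain genes were under 1.5-fold, while the cytochrome c oxidase genes Cox4i1 and Cox7c, bright on chip B, were 1.80-fold and 1.63-fold higher. Of 34 heat shock proteins and chaperones, 8 were higher and 3 lower, with none at 1.5-fold by a gene's brightest probe set.

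Among the 44 genes whose pairs of lines were opposite by 2-fold or more, the epithelial keratins Krt8 and Krt18 and the homeobox genes Hoxb6 and Hoxb7 were higher in DU6 than in DU6i and lower in DUKs than in DBA. Krt8 had signals of 12163 in DU6, 6152 in DUKs, 5714 in DU6i and 16360 in DBA, and Krt18 had 4736, 3078, 2066 and 7959 in the same order. Hoxb6 had 13384, 7352, 2688 and 19700, and Hoxb7 9344, 4312, 3939 and 17711. Each of these genes was higher in DU6 and DBA than in DUKs and DU6i. That is also the split of the pyruvate carboxylase control, and the design cannot tell the 2 apart. These genes were picked after their values were seen, and their source was not tested.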
